A study of Mus musculus with 2 samples.

Results

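Promoter elements of intermediate GC content are the genomic regions described here, in a STARR-seq experiment in activated mouse T-helper 2 (Th2) cells. They are the elements of the authors' deposited table with a midpoint no farther than 1000 bp from where a protein-coding transcript is annotated to start, and whose sequence has a GC content of 55% to under 65%. The rule applies position and sequence alone, but its GC range is the one in which promoter elements of both directions occur, so a mixture of directions was set by the choice of the range. It finds 1973 members among 18431 elements in the table, and among 5657 elements at promoters (34.9%). They lie within 1000 bp of a start of 2177 genes, on 20 chromosomes.

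STARR-seq places genomic DNA fragments in a plasmid inside a transcribed unit, so that the RNA copied from a fragment reports how strongly that fragment drives its own transcription. The cells were primary activated Th2 cells of C57BL/6NJ mice, the helper T cells that make IL-4, IL-5 and IL-13, and they carried the plasmid pool as an episome after transient transfection. Per the labels, anti-CD3e (0.25 ug/mL) and anti-CD28 (1 ug/mL) were given for 3 days, and Interleukin-4, Interleukin-2 (4 days) and anti-Interferon-gamma (2 ug/mL, 4 days) were added. The study has 1 group of 2 output libraries with the same donor record, prepared from a starting quantity of 30 ug in the size range 200 to 400, and nothing in the labels says that they came from separate animals. No comparison of cell states or treatments is possible, and the table holds no endogenous RNA by which the cell type could be checked.

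Each element has 1 signed log2 fold, 1 p-value and 1 q-value in the authors' deposited table, all made from both libraries together. No library has a value of its own, so no spread between replicates can be given, and the depth behind each element is unknown. No source used here states the base of the logarithm or what the ratio is taken against. The fold is read as log2 of RNA output over DNA input, and members are called positive or negative by its sign. Were the ratio the other way round, 51.4% of the members would be positive and every contrast between positive and negative members would change sign. Every element in the table has a q-value below 0.01, so regions without a significant fold are not seen. Counts below are given with 95% intervals that cover counting error over elements only, since neighbouring elements and copies of a sequence are not independent.

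A promoter holds the start of transcription and, around it, short sites for transcription factors. At the CpG-rich promoters of widely expressed genes the usual ones are the GC box of the SP and KLF factors, the CCAAT box of nuclear factor Y (NFY), and the sites of ETS factors, YY1, NRF1 and CREB or ATF. Promoters of immune genes also use sites for interferon regulatory factors, STAT, NF-kB and AP-1, which carry signals from cytokine and antigen receptors. In a plasmid a promoter is taken out of its chromosome and acts by its own sequence.

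The sequences that follow show members with sites that the results describe. Each is a stretch of the mm10 (GRCm38) genome outside annotated exons, 5′ to 3′ on the strand of the nearest start, with the consensus site in capitals. The first 4 are positive members with a site typical of housekeeping promoters. They are the YY1 site of 1500011B03Rik (chr5:114813597-114813724, minus strand, log2 fold 2.27), the CREB site of Atp5d (chr10:80141332-80141456, plus strand, log2 fold 3.47), the ETS site of H2-D1 (chr17:35262625-35262729, plus strand, log2 fold 2.06) and the NFY site of Srsf3 (chr17:29032569-29032627, plus strand, log2 fold 1.26).
1500011B03Rik, YY1: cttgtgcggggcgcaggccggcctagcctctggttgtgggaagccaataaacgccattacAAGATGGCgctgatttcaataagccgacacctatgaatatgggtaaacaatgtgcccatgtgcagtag
Atp5d, CRE: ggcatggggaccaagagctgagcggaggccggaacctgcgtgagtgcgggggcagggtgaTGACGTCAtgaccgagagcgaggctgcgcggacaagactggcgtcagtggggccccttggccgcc
H2-D1, ETS: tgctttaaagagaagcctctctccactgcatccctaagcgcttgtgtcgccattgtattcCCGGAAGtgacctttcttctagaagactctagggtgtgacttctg
Srsf3, NFY: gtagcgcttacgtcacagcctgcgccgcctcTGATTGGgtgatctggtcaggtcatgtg

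The next 4 are positive members with a site of immune signalling. They are the interferon-stimulated response element (ISRE) of Vars (chr17:35000764-35000893, plus strand, log2 fold 2.24), the AP-1 site of Irf5 (chr6:29529105-29529231, plus strand, log2 fold 1.40), the STAT site of Bcl6 (chr16:23988902-23989030, minus strand, log2 fold 2.30) and the NF-kB site of Chd2 (chr7:73537710-73537839, minus strand, log2 fold 1.42). The Vars site reads as the ISRE on the opposite strand, and so does the Srsf3 site as the NFY box. The stretch of Chd2 also holds, before its NF-kB site, the letters of the GC box.
Vars, ISRE: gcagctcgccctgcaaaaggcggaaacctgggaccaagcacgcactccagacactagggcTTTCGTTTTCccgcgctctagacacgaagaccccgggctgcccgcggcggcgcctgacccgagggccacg
Irf5, AP-1: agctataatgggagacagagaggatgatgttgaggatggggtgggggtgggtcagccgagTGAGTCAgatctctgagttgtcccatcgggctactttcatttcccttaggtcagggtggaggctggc
Bcl6, STAT: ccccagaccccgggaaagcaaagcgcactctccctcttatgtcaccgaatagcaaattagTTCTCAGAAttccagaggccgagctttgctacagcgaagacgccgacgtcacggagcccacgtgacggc
Chd2, NF-kB: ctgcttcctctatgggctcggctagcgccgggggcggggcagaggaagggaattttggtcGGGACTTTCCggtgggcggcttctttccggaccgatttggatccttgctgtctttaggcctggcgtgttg

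The last 4 are negative members, shown for the GC box, which was more frequent in them, for YY1, whose site also stands in elements with a negative fold, and for CTCF and NRF1, whose sites did not separate the directions beyond counting error. They are the GC box of Zswim7 (chr11:62281376-62281466, minus strand, log2 fold -1.86), the CTCF site of Tgm2 (chr2:158146437-158146557, minus strand, log2 fold -1.55), the NRF1 site of Cdt1 (chr8:122567844-122567971, plus strand, log2 fold -1.01) and a YY1 site of Gdf11 (chr10:128890830-128890957, minus strand, log2 fold -3.65).
Zswim7, GC box: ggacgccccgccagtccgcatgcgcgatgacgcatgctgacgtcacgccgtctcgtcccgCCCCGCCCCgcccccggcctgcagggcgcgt
Tgm2, CTCF: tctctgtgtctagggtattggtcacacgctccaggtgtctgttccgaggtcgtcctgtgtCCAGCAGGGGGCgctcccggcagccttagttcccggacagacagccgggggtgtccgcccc
Cdt1, NRF1: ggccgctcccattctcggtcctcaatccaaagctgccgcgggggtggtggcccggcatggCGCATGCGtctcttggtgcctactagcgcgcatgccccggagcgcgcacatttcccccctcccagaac
Gdf11, YY1: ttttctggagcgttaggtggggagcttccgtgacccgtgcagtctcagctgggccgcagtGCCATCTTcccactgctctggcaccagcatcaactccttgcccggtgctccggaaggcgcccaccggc

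The YY1 site of Gdf11, an inhibitory ligand of the TGF-beta family, lies antisense to the gene and is centred 824.5 bp downstream of the start. The GC box of Zswim7 reads as the searched letters on the opposite strand. The stretch of Zswim7 also holds, before its GC box, the letters of the CREB palindrome.

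Of the 1973 members, 959 had a positive fold and 1014 a negative one, so that 48.6% were positive (exact 95% interval 46.4 to 50.8). Over all promoter elements the positive share was 31.6%, and in the whole series it was 71.5%. Promoter elements under 55% GC were positive in 86.1% of 741, and those at 65% or more in 6.46% of 2943. The distances from these neighbouring ranges, 37.5 points below the former and 42.2 points above the latter, are a description, since the range was chosen for its mixture. Elements outside promoters in the same GC range were positive in 76.3% of 1030. The members were below them by 27.7 points (Newcombe 95% interval of the difference -31.0 to -24.2). GC content was not matched within the range. Its medians outside promoters were 57.2% in positive and 58.9% in negative elements, against 59.8% and 62.2% in members.

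Within the range the direction changed step by step with GC content. Cut into 4 equal steps of GC content, the members of the lowest step were positive in 71.3% of 341 (exact 95% interval 66.1 to 76.0), and those of the next in 63.0% of 395 (58.1 to 67.8). From 60% GC upwards the share was 46.4% of 573 in the third step (42.3 to 50.6) and 30.3% of 664 in the highest (26.8 to 33.9). No neighbouring pair of these 4 intervals overlapped, apart from those of the 2 lowest steps. The decline was also present among members whose midpoint lay within 200 bp of a start, from 72.4% to 34.1%. The limits of the range mark no break, since 82.6% of 92 promoter elements at 54% to 55% GC were positive, against 81.7% of 104 at 55% to 56%. At the upper limit the shares were 26.6% of 289 just below and 19.1% of 319 just above.

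**Figure D1:**
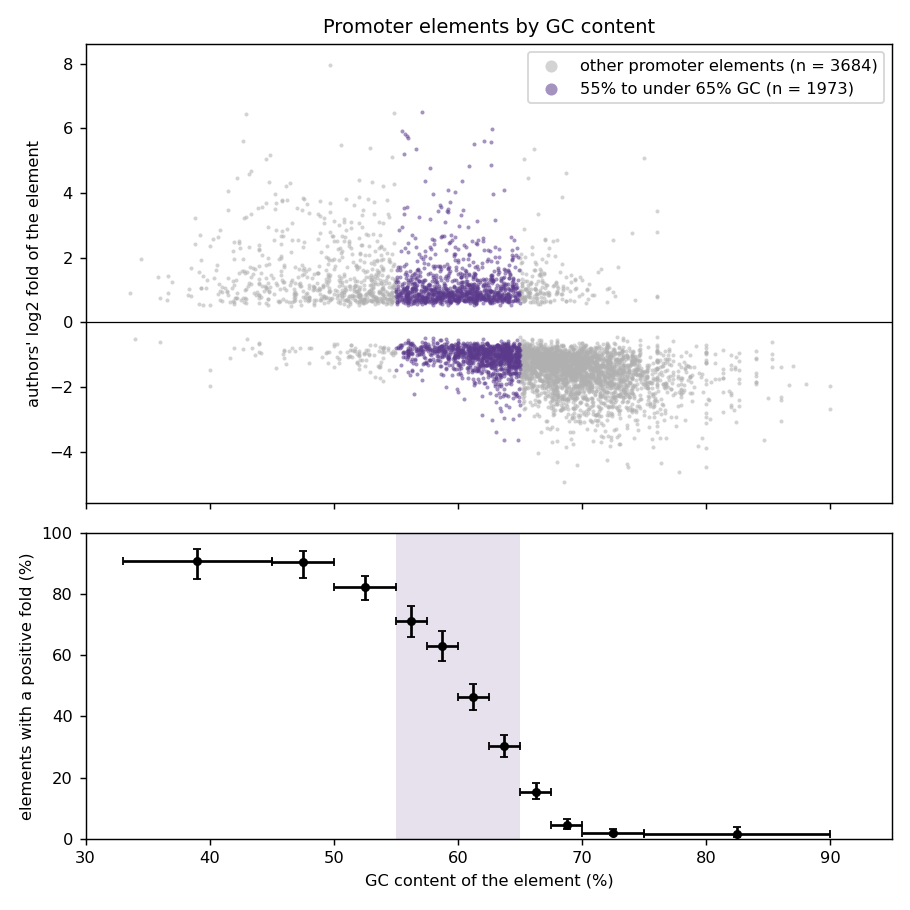
Upper panel, the authors' log2 fold of every promoter element against its GC content in percent, with the 1973 members in purple and the 3684 other promoter elements in grey. Lower panel, the share of elements with a positive fold by GC bin, where vertical bars are exact 95% intervals, horizontal bars span the bin, and the shaded band is 55% to 65%. The share goes from 71.3% in the lowest bin of the members to 30.3% in the highest.

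At the lower limit elements of both directions stood side by side. Just below 55% GC stood Ndufs7 (54.97% GC, log2 fold -0.90), a complex I subunit, and Psmb3 (54.96% GC, log2 fold 0.70), a proteasome subunit. Just inside stood Zfp873 (55% GC, log2 fold -0.79) and Chd9 (55% GC, log2 fold 0.83), a chromatin remodeller. At the upper limit the nearest elements on either side were negative. Smtnl2 (64.98% GC, log2 fold -1.45) and Mtmr3 (64.98% GC, log2 fold -1.29) were the nearest members. Fgf13 (65% GC, log2 fold -1.15) and Fam193b (65% GC, log2 fold -1.85) lay just outside. For the limit on distance, elements of the same GC range with midpoints 900 to 1000 bp from a start were positive in 13 of 23. Those 1000 to 1100 bp away were positive in 11 of 21.

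The folds themselves were modest in both directions. The median log2 fold was 0.94 in positive members (order-statistic 95% interval 0.91 to 0.98), which is 1.91-fold, and -1.02 in negative members (-1.04 to -0.99), which is 2.02-fold in the opposite direction. Large positive folds outnumbered large negative ones. A log2 fold of 2 or more was found in 98 members (4.97% of all members), beside 13.5% of all elements in the table and 4.7% of all promoter elements. Of the positive elements alone these shares were 10.2%, 18.9% and 14.9%, in the same order. A fold of -2 or less was found in 38 members (1.93% of all members), beside 3.7% of the table and 10.5% of promoter elements. Of the negative elements alone the shares were 3.75%, 12.9% and 15.3%. At an absolute log2 fold of 3 the counts were 38 and 4. Negative folds were deeper in the GC-richer promoter elements, with a median of -1.44 at 65% GC or more, and positive folds were higher in the GC-poorer ones, with a median of 1.17 under 55%.

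Many of the largest positive folds came from sequences that are not unique in the genome. The central 50 bases of 22 of the 38 members with a log2 fold of 3 or more had another exact copy on the assembled chromosomes (57.9%, exact 95% interval 40.8 to 73.7). For folds from 2 to under 3 this held for 10 of 60, and for smaller positive folds for 14 of 861 (1.63%). Of the 1014 negative members 2 had such a copy, and none of the 38 with a fold of -2 or less. No source used here states how the authors assigned reads that match several places. The part of such copies in the folds was not tested. Folds of members with a copy are therefore given with the number of copies beside them, and copies that differ by even 1 base are not counted.

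Positive members were slightly narrower and less GC-rich than negative ones but had like CpG content relative to expectation. Median widths were 800 and 850 bp, a difference of -50 bp (95% interval -75 to -14.6). Median GC contents were 59.8% and 62.2%, a difference of -2.41 points (-2.78 to -2.05). The CpG ratio, the number of CpG pairs over that expected from the C and G content, had medians of 0.737 and 0.734, and the interval of the difference reached both sides of 0 (-0.017 to 0.022). Repeat-masked sequence made up a median of 4.74% and 4.87%. Midpoints lay at a median of 13 bp and 27.75 bp downstream of the nearest start, a difference of -14.75 bp (-30.9 to 0.98). An annotated start lay inside 88.6% of positive and 84.2% of negative members.

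In the upper part of the GC range the CpG ratio did separate the directions in part. Of members with 60% to under 65% GC, 44.4% of 471 with a CpG ratio of at least 0.8 were positive (exact 95% interval 39.8 to 49.0), against 23.3% of 146 with a ratio of 0.4 to 0.6 (16.7 to 31.0). At 55% to under 60% GC these shares were 69.7% of 152 and 58.9% of 146, with overlapping intervals. GC content was not matched within either part. Members with a low CpG ratio were mostly positive at lower GC, with 81.2% of 101 under a ratio of 0.4 at 55% to under 60% GC. An example is the element of Cdkn1a, the cell cycle inhibitor p21, with a CpG ratio of 0.07 and a log2 fold of 2.94.

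Width set the narrowest members apart. The 69 members of 50 to 100 bp were positive in 24.6% (exact 95% interval 15.1 to 36.5), and only 4 of them contained an annotated start. An example is the 50 bp element of Luc7l2, a splicing factor, with a log2 fold of -1.74. Members of 201 to 400 bp were positive in 67.4% of 86 (56.5 to 77.2), and those over 1200 bp in 38.3% of 209 (31.7 to 45.2). Members centred in the 200 bp downstream of a start were positive in 49.9% of 759 (46.3 to 53.6). In the next 4 steps of 200 bp the shares were 40.9%, 33.8%, 44.4% and 43.2%, and each of their intervals overlapped the first.

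Elements serving genes on both strands were more often positive. Starts on both strands lay within 1000 bp of 225 members, and 60.4% of them were positive, against 47.1% of the 1748 with starts on 1 strand. The difference was 13.4 points (Newcombe 95% interval 6.44 to 20). With membership set by the GC content of the central 200 bp it was 3.72 points. GC content was not matched in this comparison. Among the shared elements were those of Psmb9 with Tap1 (log2 fold 2.23), of Parp9 with Dtx3l (1.91), and of Babam2 with Rbks (4.39), all positive. Other elements near starts of 2 genes were negative, as those of Zswim7 with Ttc19 (-1.86) and of Tatdn1 with Ndufb9 (-1.44).

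A list of 29 consensus sites was searched on both strands of each member, with 1 or more exact matches counted as the site being present. For 8 sites the interval of the difference between positive and negative members lay above 0, for 1 it lay below 0, and for 20 it included 0. The intervals are not adjusted for the number of sites, and the sites were chosen with earlier results of these data known. A match is a run of letters and does not show that a factor was bound.

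Sites of YY1, a zinc finger factor that acts as activator and repressor, were more frequent in positive members. The letters AAGATGGC stood in 14.6% of positive and 5.23% of negative members, a difference of 9.37 points (Newcombe 95% interval 6.77 to 12). Of the members with the site 72.5% were positive. It was present in 7.62% of all promoter elements. Of 6214 windows of 200 bp around gene starts with the same range of GC content, 3.48% held it. Whole elements are longer than these windows. In the central 200 bp it stood in 6.80% of positive and 1.90% of negative members. Named positive members with it include Rpl21 (log2 fold 1.33) and Rpl4 (1.03), both of the large ribosomal subunit, and Psmc3 (1.10), a proteasome ATPase. Kdm2a (-0.82), a histone demethylase, was a negative member with the site.

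YY1 sites were placed and turned in a particular way. In positive members 45.7% of 162 sites lay within 100 bp downstream of the nearest start (exact 95% interval 37.8 to 53.7), and 71.0% read in the sense of the gene. Of the 74 sites in that downstream stretch 64 were in sense (86.5%). Negative members had 36.4% of 55 sites there (23.8 to 50.4), 14 of 20 in sense, and the intervals of the placement overlapped. Of all 55 sites of negative members 69.1% read in sense, close to the 71.0% of positive members. Members with a sense site in the first 100 bp were positive in 81.8% of 77 (71.4 to 89.7), and members with a YY1 site elsewhere or in antisense only in 66.4% of 116 (57.0 to 74.9), with overlapping intervals.

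The CREB and ATF palindrome TGACGTCA, called CRE, stood in 10.0% of the positive members and in 2.96% of the negative ones, a difference of 7.05 points (4.92 to 9.29). Members with it were positive in 76.2% of 126, the highest share among the 9 sites whose difference excluded 0. Of all promoter elements 4.42% held it. Atp5d, the delta subunit of ATP synthase, had a log2 fold of 3.47 with a q-value of 3.96e-12 in the authors' deposited table, and its CRE was centred at -61.5 bp from the start. Stat3 (1.26) and Psmb8 (1.40) were other positive members with the palindrome, and Maf (-0.96), a Th2 transcription factor, was a negative one. Of the CREs of negative members 80.0% of 30 stood within 100 bp of a start (61.4 to 92.3). In positive members it was 52.4% of 103 (42.4 to 62.4), and the intervals overlapped. Members with a CRE only farther away were positive in 88.0% of 50, and those with one within 100 bp in 68.4% of 76. These intervals overlapped as well.

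The CCAAT box of NFY, searched as CCAATCA or CCAATGA, was in 28.9% of positive and 18.9% of negative members, a difference of 9.95 points (6.19 to 13.7). It was in 17.4% of all promoter elements. In positive members 48.2% of 388 boxes lay in the 100 bp upstream of a start, with a median position of -59 bp. The median in negative members was -62 bp, so the placement was alike. Members with 1 box were positive in 56.9% of 357, with 2 in 50 of 80 members and with 3 or more in 75% of 32 members, and the intervals of these shares overlapped. Srsf3, a splicing factor (1.26), Sesn2, a p53-induced stress protein (1.60), and Hspa1b, an inducible HSP70 (2.10, 1 other copy), were positive members with the box.

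The ETS site CCGGAAG was the most frequent of the 8, in 32.5% of positive and 24.3% of negative members, a difference of 8.27 points (4.30 to 12.2), and in 22.1% of all promoter elements. Its positions were alike in both directions, with medians of -7 and -9 bp. Members with 3 or more ETS sites were positive in 78.8% of 33 (61.1 to 91.0), and those with 1 in 53.1% of 426 (48.2 to 57.9), and these intervals did not overlap. The interval of the ETS difference included 0 with q-values below 0.001, with absolute log2 folds of at least 1 and in the central 200 bp, where the difference was 2.70 points (-0.17 to 5.58). Isy1, a splicing factor with an ETS site, had a log2 fold of 3.73. Mki67, which encodes the proliferation marker Ki-67, had an ETS site and a log2 fold of -1.40.

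Sites of immune signalling were also more frequent in positive members. The ISRE, counted as GAAA followed after 2 bases by GAAA, was in 12.5% of positive and 5.33% of negative members, a difference of 7.19 points (4.69 to 9.74). AP-1 sites (TGACTCA or TGAGTCA) were in 13.8% and 9.66%, a difference of 4.10 points. STAT sites (TTCNNNGAA) were in 20.4% and 16.2%, a difference of 4.26 points. NF-kB sites, GGG and TTTCC with 2 bases between, were in 7.19% and 4.44%, a difference of 2.76 points. The AP-1 and STAT intervals included 0 with q-values below 0.001, the AP-1 interval also with absolute log2 folds of at least 1, and the NF-kB interval in the central 200 bp. Over all promoter elements these 4 sites were present in 7.51%, 9.92%, 13.6% and 4.56%, in the order given. The 4-base spacing preferred by STAT6, the factor activated by IL-4, was in 14.3% and 12.7%, and the interval of its difference included 0.

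The ISRE, STAT and NF-kB sites of positive members lay nearer to a start than those of negative members. Within 100 bp of a start were 36.1% of 133 ISREs in positive members (27.9 to 44.9) and 17.7% of 62 in negative ones (9.20 to 29.5). The shares were 31.9% of 235 and 18.5% of 184 for STAT, and 35.1% of 74 and 17.8% of 45 for NF-kB. For STAT these intervals did not overlap, and for the other two sites they did. AP-1 sites showed no such contrast, with 24.3% and 23.1%. Members with a STAT site within 100 bp of a start were positive in 67.0% of 100, and those with STAT sites only farther away in 49.6% of 260.

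The SP and KLF GC box, GGGGCGGGG, was the single site whose interval lay below 0. It was in 27.0% of positive and 35.7% of negative members, a difference of -8.69 points (-12.7 to -4.60), and in 34.3% of all promoter elements. Members with the box were positive in 41.7%. The difference was -7.70 points at 60% to under 65% GC (-13.1 to -2.18) and -1 points at 55% to under 60% (-7.67 to 5.23). In promoter elements outside the range it was -6.63 points under 55% GC (-14.4 to -1.39) and -8.05 points at 65% or more (-14.8 to -0.78). Whether it differs between these GC ranges was not tested. Zfp839 (-1.71), Relb (-1.47), an NF-kB subunit, and Rpl3 (-1.33), a ribosomal protein whose element lies nearer to a start of Syngr1, were negative members with the box. Its positions were alike in both directions, with medians of -34 and -31 bp. For each of the 8 sites above, the positive share was lower among members that also had a GC box, with overlapping intervals each time. Over all members it was 51.8% without and 41.7% with a GC box, and GC content was not matched. For members with a CRE the positive share was 80.7% of 83 without and 67.4% of 43 with a GC box. For members with an ISRE it was 75.4% of 118 and 55.4% of 56.

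**Figure D2:**
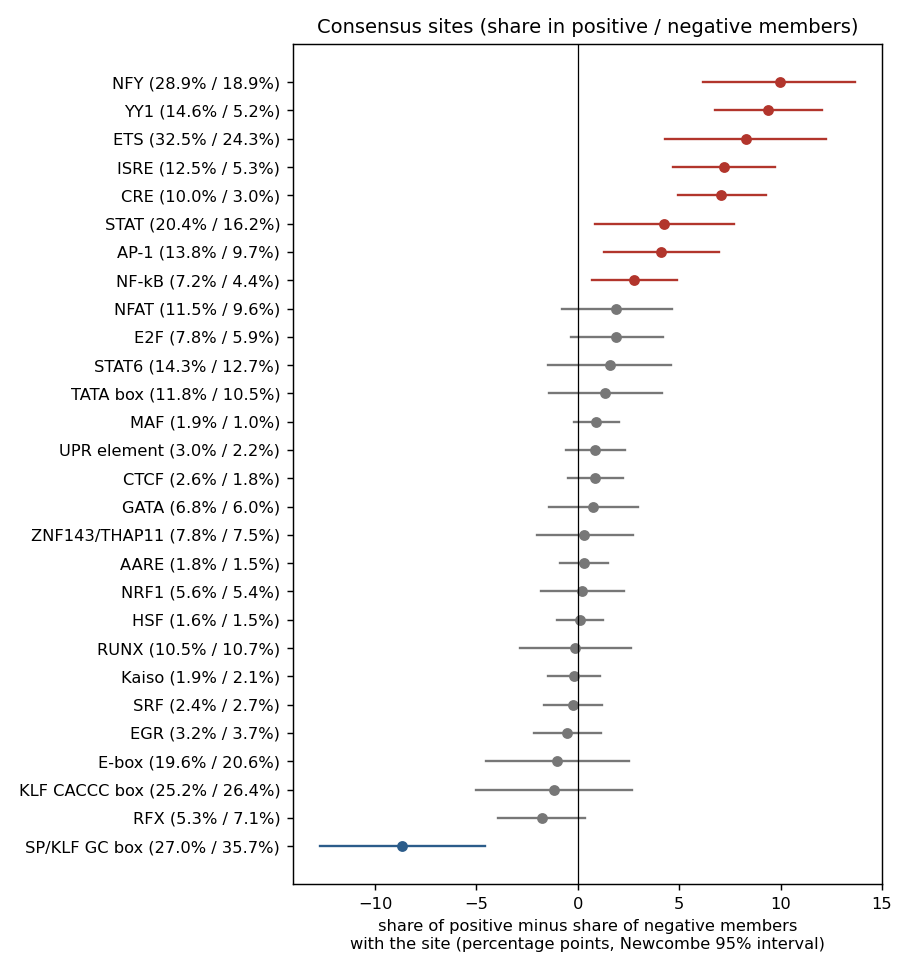
Difference in percentage points between the shares of positive and of negative members with each of the 28 sites found in any member. Points are differences, lines are Newcombe 95% intervals, the pair of percentages in each label gives the shares in positive and negative members, and intervals above 0 are red and below 0 blue. NFY, YY1 and ETS have the largest positive differences, and the SP/KLF GC box has the single interval below 0.

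**Figure D3:**
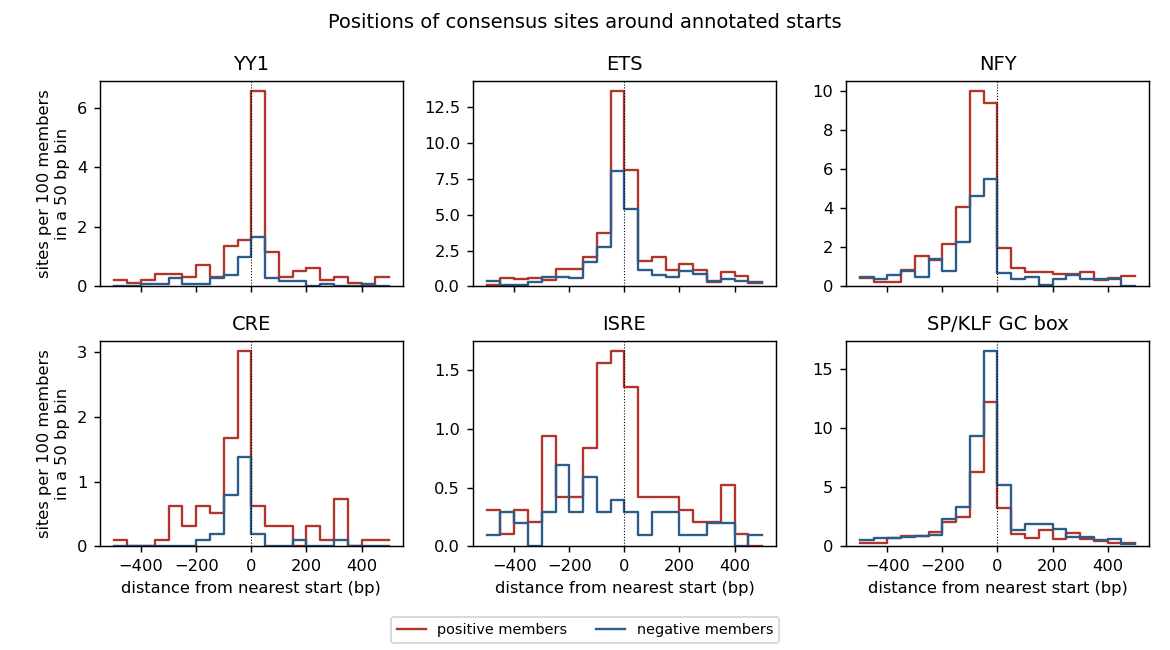
Positions of 6 kinds of site around the nearest annotated start, in bins of 50 bp from 500 bp upstream to 500 bp downstream, as sites per 100 positive members (red) and per 100 negative members (blue). YY1 sites gather just downstream of the start, NFY sites upstream of it, and ISREs of positive members around it.

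Several further sites did not separate the directions beyond counting error. NRF1 sites (CGCATGCG) were in 5.63% of positive and 5.42% of negative members, and the difference of 0.21 points had an interval from -1.82 to 2.26. E-boxes (CACGTG) were in 19.6% and 20.6%, TATA boxes (TATAAA) in 11.8% and 10.5%, CTCF sites in 2.61% and 1.78%, and ZNF143 sites in 7.8% and 7.5%. Sites of the T-cell factors RUNX (TGTGGTT, 10.5% and 10.7%), GATA (6.8% and 6.0%) and NFAT (TGGAAAA, 11.5% and 9.6%) belonged to the same group. For NFAT this held over whole elements only. In the central 200 bp its site stood in 2.48% of positive and 1.06% of negative members, a difference of 1.43 points (0.22 to 2.73). Within 100 bp of a start lay 36.1% of 119 NFAT sites in positive members (27.5 to 45.4). In negative members it was 15% of 100 (8.65 to 23.5), and these intervals did not overlap. A full p53 site was found in none of the members. TATA boxes of positive members lay within 100 bp of a start in 36.3% of 124 cases, against 21.2% of 118 in negative members, with overlapping intervals.

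The direction of a member followed the number of different sites it held. The 8 kinds of site were picked because they were more frequent in positive members, so the counts that follow describe these elements and are no separate evidence. Members with none of the 8 were positive in 33.1% of 620, with 1 kind in 48.4% of 729, with 2 in 60.7% of 428 and with 3 in 66.7% of 153. With 4 kinds 91.4% of 35 were positive. An increase from none to 4 kinds was present in both GC ranges, from 52.0% to 100% at 55% to under 60% and from 23.8% to 82.4% at 60% to under 65%. It was also present among members of over 600 to 1000 bp, from 31.8% to 93.3%. GC boxes ran the other way, from 51.8% positive among 1352 members with none to 36.7% among 60 with 3 or more. At 60% to under 65% GC these shares were 40.6% and 30%, with overlapping intervals, and at 55% to under 60% they were 67.1% and 70%.

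**Figure D4:**
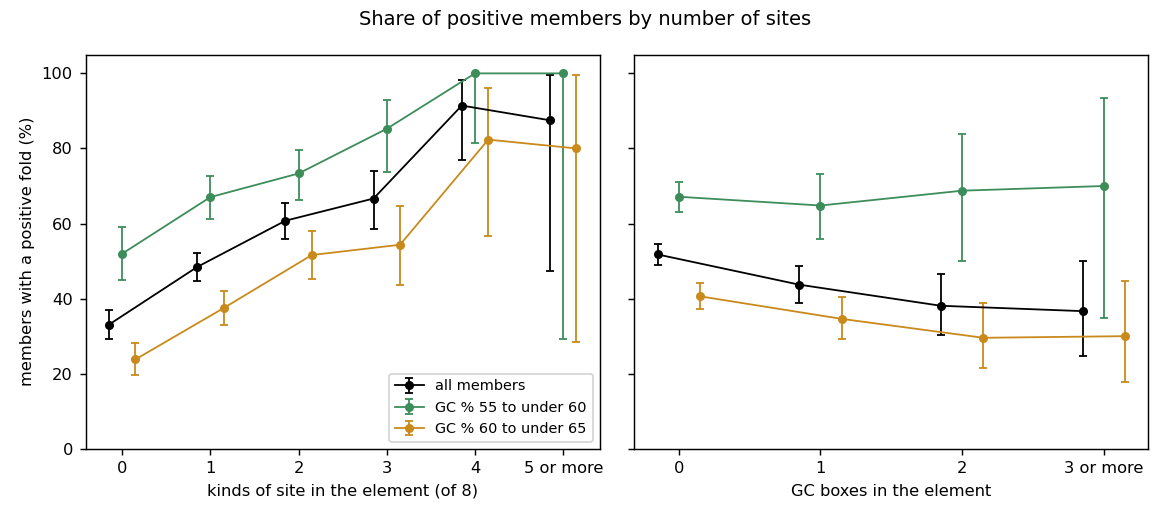
Share of members with a positive fold, in percent, by the number of kinds of site they hold out of 8 (left) and by their number of GC boxes (right). Black points are all members, green those of 55% to under 60% GC and orange those of 60% to under 65%, and bars are exact 95% intervals. The share increases with kinds of site, from 33.1% to 91.4% over all members with none to 4 kinds, and decreases with GC boxes over all members.

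Several of these contrasts were also seen in promoter elements outside the range. At 65% GC or more, elements with a YY1 site were positive in 19.7% and those without in 5.53%, and for the CRE the shares were 24.2% and 5.84%. Under 55% GC the interval of the ETS difference included 0 (-6.60 points, -15.7 to 0.66), as did that of YY1 (-0.84 points, -7.60 to 3.22). The ISRE and AP-1 differences there were 17.2 points (10.2 to 21.9) and 14.6 points (6.68 to 20.2). Whether differences change between the GC ranges was not tested.

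Gene groups were compared by the members near their genes, where a member counts for each gene with a start within 1000 bp of its midpoint. Over all members 48.6% were positive and the median log2 fold was -0.64, and each group is set beside those values. In 3 of 19 groups every member was positive, and 2 groups had more negative than positive members. The exact 95% interval of the positive share lay above 48.6% in 6 groups (MHC class I, histones, interferon response, proteasome, heat shock and cytosolic ribosomal proteins) and included it in the other 13. These intervals are not adjusted for the number of groups. The lists were chosen with earlier results of these data known, so the intervals describe these elements and are no separate evidence. The lists are short, and their members differ in GC content from the members as a whole.

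Genes of the interferon response, which encode antiviral sensors and effectors, gave 15 members for 16 genes, and all 15 were positive with a median log2 fold of 2.19. Their median GC content was 56.6%, in the step where 71.3% of all members were positive. Ifih1, the RNA sensor MDA5, had a log2 fold of 3.56 and a q-value of 7.30e-12 in the authors' deposited table. Irf9, the DNA-binding subunit of the interferon-activated ISGF3 complex, had 3.34, and Stat2, another subunit of it, 1.62. Eif2ak2, the kinase PKR that stops translation, had 2.32, Usp18, which removes ISG15, 2.19, and Oas3, which makes the activator of RNase L, 2.16. The lowest of the group was Bst2, or tetherin, at 1.40. Sp110 (5.36) and Samd9l (6.51), the highest of all members, each had 1 other exact copy of their centre. An ISRE was found in 10 of the 15 (66.7%), against 8.82% of all members, and Irf9, Lgals3bp, Samd9l, Sp110 and Trim25 had none.

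Genes of MHC class I presentation gave 9 members, all positive, with a median of 1.45. The shared promoter of Psmb9, an immunoproteasome subunit, and Tap1, the peptide transporter, had a log2 fold of 2.23. The class I heavy chains H2-D1 (2.06) and H2-K1 (1.60) both held ETS, NFY and STAT sites. The lowest values were those of Nlrc5, the transactivator of class I genes (1.16), and Psmb10 (0.84). ISREs were in 6 of the 9. Proteasome subunits as a whole, a list that shares Psmb8, Psmb9 and Psmb10 with the former, were positive in 10 of 11, and the exception was Psmd14, a deubiquitinase of the lid (-1.09).

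Histone genes, transcribed together in S phase, gave 19 members for 25 genes, all positive, with a median of 1.12. NFY boxes were in 13 of the 19 (68.4%, against 23.8% of all members) and TATA boxes in 9 (47.4%, against 11.1%). Most values were moderate, as in Hist1h3e (1.80), Hist1h1c (0.90) and Hist1h3c (0.60). The highest values were those of Hist1h4n (5.75, 1 other copy), Hist1h4m (5.70) and Hist2h2aa1 (2.96, 1 other copy). Histone genes are near-identical copies of each other, so values of single genes are uncertain.

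Genes of the p53 response were positive in 8 of 10 members (exact 95% interval 44.4 to 97.5), with a median log2 fold of 1.67. Cdkn1a had 2.94, Gtse1 2.44, Trp53inp1 2.08 and Bax, which opens the mitochondrial outer membrane in apoptosis, 2.01. Tigar (-0.77) and Sesn1 (-0.98) were negative. No full p53 site was found in any of them within the element. Only 0.018% of all promoter elements held the searched letters, so their absence here says little about these genes.

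T-cell signalling genes gave few members, and the intervals of their positive shares all included that of all members. Among Th2 and common gamma chain genes 6 of 7 members were positive (42.1 to 99.6), led by Bcl6, the repressor that directs follicular helper T cells (2.30), Jak3, the kinase of the common gamma chain (1.51), and Il2rb, the IL-2 receptor beta chain (1.13). Cish (0.65) and Socs1 (0.63), feedback inhibitors of cytokine signalling, had smaller folds. Among NF-kB and TNF genes 7 of 8 were positive (47.3 to 99.7), with Birc3 (2.12), Nfkb2 (1.65) and the inhibitors Nfkbia (0.95) and Nfkbie (1.16), and 5 of the 8 held an NF-kB site. The negative member was that of Relb (-1.47). Traf3 (-2.18), an adaptor of TNF receptor signalling, was not on this list, so the share depends on the genes listed. In the T-cell receptor and activation group 6 of 8 were positive (34.9 to 96.8). They include Jun (1.10), Egr1 (0.52) and a pair of elements at Fos (1.27 and 0.86), while Nfatc3 (-1.54) and Bcl10 (-0.85), an adaptor between the antigen receptor and NF-kB, were negative.

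Genes of protein synthesis and folding follow. Cytosolic ribosomal proteins were positive in 16 of 22 members (49.8 to 89.3), with values from -1.33 (Rpl3) to 1.74 (Rps27l), and 11 of the 22 held an ETS site (50%, against 28.3% of all members). Aminoacyl-tRNA synthetases were positive in 6 of 7 (42.1 to 99.6), led by Vars, the valine enzyme (2.24). Heat shock proteins and chaperones were positive in 13 of 16 (54.4 to 96.0). The inducible HSP70 genes Hspa1a (4.10) and Hspa1b (2.10) were highest, each with 1 other exact copy, and they are near-identical neighbours. Hspa5, the chaperone BiP of the endoplasmic reticulum, had 0.79, and Dnaja2 (-1.55) was lowest. Amino acid and unfolded protein stress genes were positive in 4 of 5 (28.4 to 99.5), with Slc3a2, a subunit of amino acid transporters, at 2.42 and Pdia6, a disulfide isomerase, at -0.98.

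Other housekeeping and regulatory groups lay closer to the members as a whole. Oxidative phosphorylation genes were positive in 9 of 13, splicing factors in 8 of 13, mitochondrial ribosomal proteins in 6 of 10 and E2F and DNA replication genes in 5 of 9. Rrm2, a subunit of ribonucleotide reductase, had 1.34, and Cdt1, which licenses replication origins, had -1.01. Developmental factors were positive in 5 of 11 and chromatin regulators in 2 of 6. An element within 1000 bp of a start of Foxp3, the regulatory T-cell factor, had 1.05, and it lies nearer to a start of Ppp1r3f. Tet2 (0.80) and Tet1 (-0.85), which oxidise methylcytosine, had opposite signs, and Dnmt3a, a DNA methyltransferase, had -1.02.

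The Zfp series of zinc finger genes, most of them DNA-binding proteins, was the largest group, with 34 of 55 members positive (61.8%, exact 95% interval 47.7 to 74.6). Zfp970 (5.20) and Zfp750 (3.52) were highest. Of the 55 elements 5 had another exact copy of their centre, among them Zfp119b (2.96, 2 other copies), Zfp959 (2.40, 2 other copies) and Zfp119a (1.96, 1 other copy), which carried the same 3 sites, NFY, CRE and RUNX. Negative values reached -1.75 at Zfp516, which had 3 negative elements and no positive one.

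**Figure D5:**
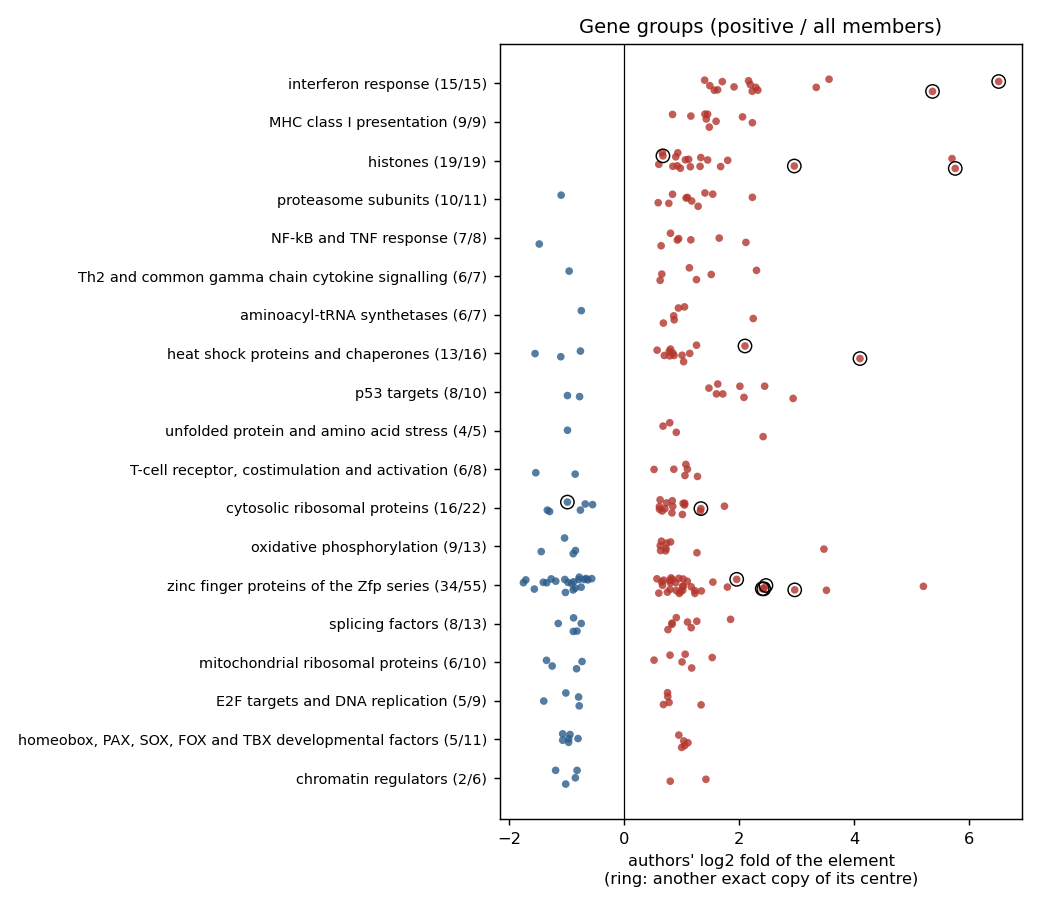
The authors' log2 fold of each member near a gene of 19 groups, with positive members in red, negative ones in blue, and a ring around members whose central 50 bases have another exact copy. Labels give the positive and all members of each group. Interferon response, MHC class I and histone members all lie above 0.

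Of the 10 positive members with the lowest q-values 6 had no other exact copy. In the authors' deposited table Babam2, a subunit of BRCA1-linked deubiquitinase complexes, had a log2 fold of 4.39 (q = 2.01e-12, chr5:31697576-31698700, 1125 bp). Dgat1, an enzyme of triglyceride synthesis, had 4.02 (q = 3.34e-12, chr15:76511776-76512650), and Rnaset2a, a lysosomal ribonuclease, had 4.09 (q = 1.94e-11, chr17:8147326-8148125). Atp5d, Ifih1 and Isy1, given above, complete the 6. Rnaset2b (3.97, 1 other copy) is a close relative of Rnaset2a. Gm13283 (5.62) and Gm13288 (5.97), each with 11 other copies, both held a STAT site. Among the largest folds were Fgfr1op (5.93) and Tagap1 (5.82), each with 1 other copy and both with an SP/KLF GC box and a STAT6 site.

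The strongest negative members came from the GC-rich end of the range, with 62.0% to 64.9% GC among the 10 of lowest q-value. Phc1, a Polycomb subunit, had a log2 fold of -3.66 (q = 2.91e-08, chr6:122339201-122340600, 1400 bp, 64.9% GC) in the authors' deposited table. Gdf11 had -3.65 (q = 4.07e-09, chr10:128890576-128891725). Others were Myef2 (-3.03), Gpat4, an enzyme of glycerolipid synthesis (-2.98), Cep135, a centriole protein (-2.96), and Ptk2, the focal adhesion kinase (-2.73). Traf3, an adaptor of TNF receptor signalling, had -2.18 in an element of 300 bp, and Taf5, a subunit of the general factor TFIID, also had -2.18. Phc1 held ETS, CRE, STAT and ISRE letters together with a GC box, and Gdf11 held ETS, YY1 and STAT letters with a GC box. Ptk2 held none of the 29 sites. The elements of Luc7l2 and Traf3 apart, those with the 10 lowest q-values were 775 bp or wider.

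At 12 genes members of both directions were found, against 1082 genes with positive and 1083 with negative members alone. A gene with a single member cannot show both directions. Counted by the nearest start, only 30 of 1940 genes had 2 or more members, with 63 members between them. At Irf5, an interferon regulatory factor, an element of 225 bp with an AP-1 site had a log2 fold of 1.40 (55.1% GC). Another of 75 bp had -0.78 (62.7% GC). At Mast3 an element of 475 bp had 0.71 and one of 50 bp had -0.95, and at Foxa1, a pioneer factor of endoderm, elements of 625 and 50 bp had 1.04 and -1.07. At Tbc1d1, a regulator of glucose transporter traffic, elements at different annotated starts had 1.17 and -1.18, and so had those of Ccdc12 (0.78 and -1.17). In 11 of the 12 the positive element had the lower GC content.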

How the data were processed

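The authors deposited 1 element table for both output libraries together, on mm10 per the deposited text lists of files. It has no header. Its signal column holds a signed log fold deposited by the authors and read here as log2, and 2 further columns hold a p-value and a q-value on a linear scale, as the authors deposited them. The aligner, the caller, the logarithm's base and the ratio's reference are not given in the sources. The last column is the width, equal to end minus start plus 1 in all 18431 elements. The input experiment and signal tracks are not analysed here.

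Elements on assembled chromosomes (18414) were joined to the GRCm38 p6 genome and GENCODE M21. GC content, CpG ratio, soft-masked share, distance to the nearest start, exact copies of the central 50 bases and 29 consensus sites were computed for each, with Python 3.11.15, pandas 2.3.3 and scipy 1.17.1. Shares have exact (Clopper-Pearson) 95% intervals, differences of shares Newcombe intervals, and medians order-statistic intervals, combined for differences of medians. The search and the intervals were tested on simulated data, where all 3480 planted sites were found and no interval type covered less than 94.15%. Single elements have no test other than the authors' q-value, and depth is unknown, so no filter on depth was possible.

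The members, the 19 gene lists and the 29 sites were chosen with earlier results of these data known. Named elements are, per direction, the 10 of lowest q-value and the 5 of largest absolute fold, up to 3 per gene list by q-value, up to 2 per site by fold, up to 6 genes with both directions, and the members nearest to the GC limits. Members of gene lists beyond these, and Zfp516, were named after their values were seen. A member that this rule names is not reported here. Sequences were shown for up to 12 named members whose site lies outside exons and nearest to a start. Of the list symbols, 1 of 50 in the interferon list was unmatched and all others matched. Alternatives are given in the closing section.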

Additional observations from a re-analysis of the deposited data

How the results depend on the processing

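Each result was recomputed under 10 other rules of membership, and site and composition results also on the central 200 bp and per kb. Leaving out elements with another exact copy was added after the data were seen. No sign of a site difference with an interval off 0 turned under any of them. Of the comparisons that answer a question of the report, 194 stayed within the original interval and 38 moved outside it, and for gene groups and other sites these counts were 445 and 24. The membership rules by distance (500 bp), overlap with a start and transcript type, and those leaving out masked elements, sex chromosomes or further elements of a gene, moved none of the 38, and neither did leaving out copies.

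With q-values below 0.001 the positive share was 53.1%, the median log2 folds 1.25 and -1.23, the differences in width, GC content and CpG ratio -100 bp, -2.93 points and -0.021, the ETS and GC box differences 3.38 and -13.7 points, and the excess over elements at 65% GC or more 48.4 points. With an absolute log2 fold of at least 1 the share was 45%, the medians 1.38 and -1.25, the GC, CpG ratio and distance differences -2.96 points, -0.030 and -35 bp, the GC box and NF-kB differences -14.6 and 5.57 points, and the difference from elements under 55% GC -45.1 points. In the middle of the range, steps 2 and 3 of 4 equal steps of GC content, the share was 53.2%, the negative median -0.96, the width, GC and CpG ratio differences 0 bp, -0.83 points and 0.036, the GC box and CRE differences -3.91 and 10.1 points, and the differences from lower and higher GC -32.9 and 46.7 points. With the GC of the central 200 bp deciding, the share was 57.0%, the negative median -1.07, the GC difference -4.33 points, the difference from elements under 55% GC -27.1 points and that between starts on both strands and 1 strand 3.72 points. In the central 200 bp the GC difference was -4 points, and the ETS, NFY, YY1, CRE and ISRE differences were 2.70, 5.55, 4.90, 3.68 and 2.5 points. Fewer elements or bases enter each of these settings, and no other cause was tested.

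The intervals for YY1, CRE, NFY and ISRE stayed off 0 in all 12 settings that have one. Those for AP-1 and ETS reached 0 in 3, with q-values below 0.001, with absolute log2 folds of at least 1 and, for AP-1, in the middle of the GC range or, for ETS, in the central 200 bp. Those for STAT and NF-kB reached 0 in 2, for STAT with q-values below 0.001 and in elements that overlap a start, and for NF-kB in the middle of the range and in the central 200 bp. That of the GC box did so in the middle of the range. The base of the logarithm is unknown, which leaves signs and orders as they are but not counts at a fold. The direction of the ratio is not stated either, and turning it would turn every sign. The depth of single elements is unknown. No replicate could be left out, since the table joins both libraries. No paired analysis was possible because there is 1 group and no value per library.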

Other observations

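The sites that went with direction did not go with larger positive folds in the same way. Positive members with an ETS site had a median log2 fold of 0.88 (95% interval 0.85 to 0.91), against 0.98 in those without. For YY1 the medians were 0.92 (0.83 to 0.98) with the site and 0.94 without. Those with an ISRE had a median of 1.07 (0.96 to 1.19), against 0.92 without, and those with a CRE 1.05 (0.93 to 1.16), against 0.93. Negative members with a GC box had a median of -1.07 (-1.10 to -1.02), against -0.98 without.

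Elements of the same GC range outside promoters showed the AP-1 contrast as well. Of 231 with an AP-1 site 89.2% were positive, against 72.6% where it was absent. There CREs stood in 31 elements, of which 93.5% were positive, and ETS sites in 86, of which 74.4% were positive against 76.5% of those without. Members with a MAF site, which contains an AP-1 site, were positive in 64.3% of 28 (44.1 to 81.4). The interval of the MAF difference between positive and negative members included 0 (0.89 points, -0.18 to 2.05).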
